A study of Mus musculus with 4 samples.

Results

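Classic markers of cortical interneuron classes are described here in mouse medial prefrontal cortex (mPFC), part of the frontal neocortex. The 9 genes are Pvalb, Sst, Vip, Npy, Cck, Reln, Calb2, Lhx6 and Adarb2. They were taken by symbol as class markers, and all 9 were found among the 17778 genes of the deposited table. The mPFC was taken from mice labelled C57BL/6, which the methods of the study describe as male C57BL/6J mice that were juvenile at the start. Adaptation, several weeks with or without stress and behavior tests came before the tissue was taken. The CUMS group (2 libraries) had gone through chronic unpredictable mild stress, a schedule of changing mild stressors, and consisted of the mice that then showed depression-like behavior. The Control group (2 libraries) lived without the stressors. The labels do not say whether a library stands for a single mouse, and the tissue of both sides was used unsorted, so that every value is an average over all cell types of the piece. For each gene the table held 1 mean per group, in RPKM (reads over the length of the gene in kilobases and the sequencing depth of the library), and no value for a library.

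Interneurons are the inhibitory neurons of the cortex. They release GABA and fall into classes that differ in birthplace, in the part of the target neuron they contact and in the peptides and calcium-binding proteins they make. Cells with parvalbumin (Pvalb) or somatostatin (Sst) are born in the medial ganglionic eminence (MGE) of the embryonic forebrain and keep the transcription factor Lhx6. Cells with vasoactive intestinal peptide (Vip), many of which also hold calretinin (Calb2), and part of the reelin (Reln) cells come from the caudal ganglionic eminence (CGE) and are marked by Adarb2. Parvalbumin cells contact the soma and somatostatin cells the dendrites of pyramidal neurons, whereas VIP cells mainly inhibit other interneurons.

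Some neuropeptide genes carry short promoter sequences through which cAMP and calcium signals act on transcription, and the windows of 3 members are shown because they hold such letters. The cAMP response element (CRE), TGACGTCA, is bound by CREB. RefSeq (GRCm38.p6) gave a promoter for 8 of the 9 genes, and the 250 bases before each start were searched on both strands for the full element and for its shorter core, TGACG or CGTCA. Capitals mark the match.
Sst: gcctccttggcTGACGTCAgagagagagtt
Vip: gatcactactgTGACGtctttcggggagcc
Cck: gtcctgctggactgCGTCAgcactgggtaa
The Sst window is chr16:23890874-23890903 on the minus strand, 59 to 30 bases before the start, and it lies inside the RefSeq span of the gene because that span begins upstream of this start. The Vip window is chr10:5639128-5639157 on the plus strand, 90 to 61 bases before the start. The Cck window is chr9:121495726-121495755 on the minus strand, 61 to 32 bases before the start. The full element was found in Sst alone among the 8 genes, and in 1.77% of 27025 genes in all. The core was found in Sst, Vip and Cck, 3 of the 8, against 19.8% of all genes, and the full element contains the core. A match of letters is a description of the sequence and was not tested for binding.

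In control mPFC, Cck was at 421.315 RPKM and Sst at 314.325 RPKM, which placed them 84th and 150th among the 17778 genes. Npy followed at 90.185 RPKM, Calb2 at 36.075, Pvalb at 22.92 and Vip at 15.65 RPKM. Lhx6 was at 9.955 RPKM, Reln at 6.41 and Adarb2 at 1.98 RPKM. The 3 most abundant markers were thus secreted peptides, and the transcription factor and the RNA-editing family member were among the least. In CUMS the order was the same apart from 1 gene, since Calb2 went from the 4th to the 6th place, behind Pvalb and Vip.

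**Figure D1:**
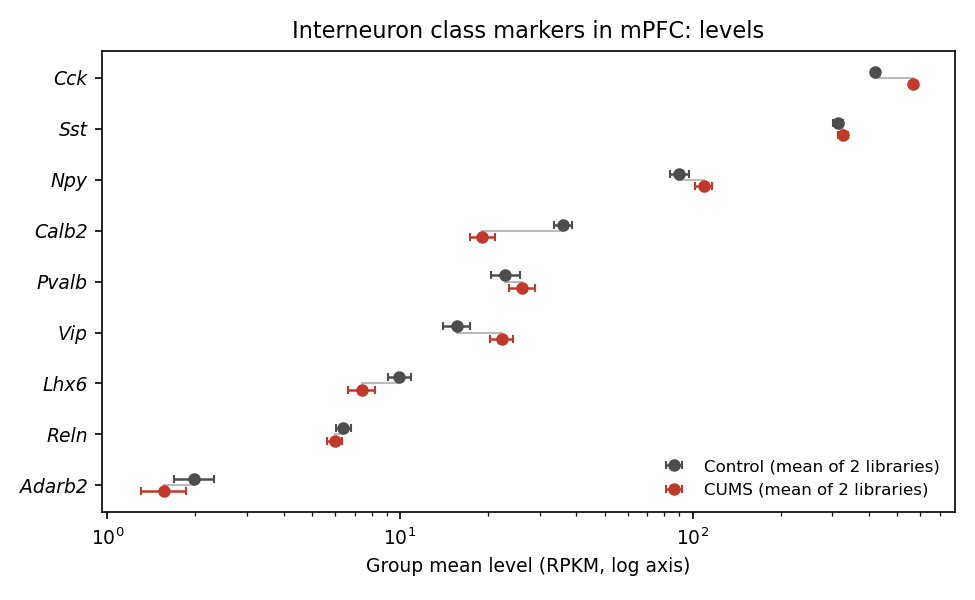
Group mean of each class marker in RPKM on a log axis, control in grey and CUMS in red, with bars for the 95% counting interval. Calb2 was at 36.075 RPKM in control and 19.115 RPKM in CUMS, where it stood behind Pvalb and Vip, while Cck and Sst stood highest in both groups.

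How precisely these levels were counted was judged from the depth, which the table does not state. Low values of short genes lay on regular steps, from which the depth of a library was estimated at 7385524 fragments in control and 7440476 in CUMS. The study states several times more reads per library than this, a gap that was not resolved, and fragment numbers and counting intervals hold only under this estimate. On it a member rested on 127 (Adarb2, CUMS) to 5907 fragments (Cck, CUMS) over the libraries of a group. The ratio of each pair of neighbours in the order excluded 1 by counting error in 16 of 16 cases. The closest were Pvalb over Vip in CUMS, 1.17 (interval 1.02 to 1.35), and Vip over Calb2 in CUMS, 1.17 (1.02 to 1.33). The intervals cover counting error only and say nothing of differences between mice. With 1 value per group, no difference below could be given a replicate check or a p-value here.

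The length used for RPKM also bears on the order. The deposited Vip length was 1527 bases, whereas its longest GENCODE transcript has 2532. With the longest transcripts in place of the deposited lengths, Vip in CUMS was at 13.4 RPKM and Calb2 at 19.5 RPKM, so that Calb2 stayed ahead of Vip, and control Vip over Lhx6 was 1.02 (0.884 to 1.17). The length cancels in a comparison of groups, so that the ratios below do not depend on it.

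The main comparison asked which markers stood higher or lower in CUMS than in control. Higher means were found for 5 genes, Vip, Cck, Npy, Pvalb and Sst, and lower means for 4, Reln, Adarb2, Lhx6 and Calb2. The median log2 ratio of the 9 genes was 0.05, against -0.02 over the 14257 genes that reached a minimum of 0.5 RPKM in at least 1 group, as all 9 did. The range ran from -0.92 for Calb2 to 0.51 for Vip. Calb2 alone was past 1.5 fold, 1 of 9 genes, where 7.20% of all genes above the minimum were past it (2.78% higher and 4.42% lower). Low genes pass a fold more easily, and among the 9397 genes of at least 5 RPKM, which include all members but Adarb2, 1.60% were past it (0.319% higher and 1.28% lower). The counting interval lay above 0 for 3 of 9 members, where 12.5% of all genes did so, and below 0 for 2 of 9, where 16.8% did so. In tissue RNA, fewer cells of a class and less RNA per cell cannot be told apart, and this holds for each gene below.

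**Figure D2:**
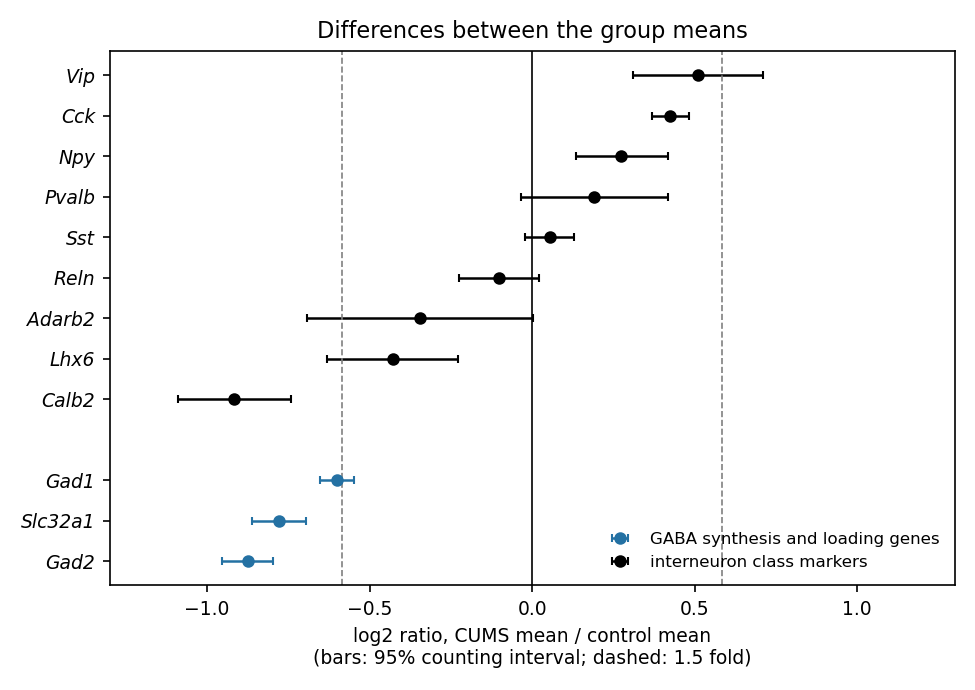
Log2 ratio of the CUMS mean to the control mean for the 9 class markers (black) and 3 genes of GABA synthesis and vesicle loading (blue), with 95% counting intervals and dashed lines at 1.5 fold. The peptides Vip (0.51), Cck (0.42) and Npy (0.27) lie to the right of 0, and Calb2 (-0.92) lies beside Gad2 (-0.88) and Slc32a1 (-0.78).

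Among the MGE markers, the effector genes and the transcription factor differed in direction. Pvalb (gene 19293, chromosome 15, 78191112 to 78206400), which encodes a calcium buffer of fast-spiking cells, was at 22.92 RPKM in control and 26.155 RPKM in CUMS. Its log2 ratio of 0.19 had an interval of -0.03 to 0.42, so that equal levels lay within counting error. Sst (gene 20604, chromosome 16, 23889573 to 23891342), the inhibitory peptide of dendrite-targeting cells, was at 314.325 and 326.37 RPKM, a log2 ratio of 0.05 (-0.02 to 0.13). Sst rested on 2781 and 2909 fragments, which gives it a narrow interval. Lhx6 (gene 16874, chromosome 2, 36081950 to 36105992), the factor that MGE-born cells need for their identity and that they keep in the adult, was at 9.955 RPKM in control and 7.4 RPKM in CUMS. Its log2 ratio was -0.43 (-0.63 to -0.23), or 1.35-fold lower, and 263rd from the lowest among the 9397 genes of at least 5 RPKM. A small RNA gene, Gm27953, shares 104 exon bases with Lhx6 on the same strand, and it has no entry of its own in the table.

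The difference in log2 ratio between 2 members is independent of the scaling between groups. Pvalb exceeded Sst by 0.14 (-0.10 to 0.37), an interval that holds 0. Of the 36 pairs of members, 29 had an interval that excluded 0, and 21 did so when the fragments were taken to be fewer by a factor of 2. Lhx6 therefore stood apart from the peptide markers by counting error, with a log2 ratio below that of Cck by a difference of 0.85 (0.65 to 1.06) and below that of Vip by 0.94 (0.66 to 1.22).

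The other genes of the MGE lineage did not share a direction. Of 6 tested genes, Lhx6 included, 3 were higher and 3 lower, with a median of -0.16, and 1 was past 1.5 fold. This was Nkx2-1, the factor that specifies the MGE and acts before Lhx6, at 2.565 RPKM (93 fragments) in control and 0.67 RPKM (25 fragments) in CUMS, a log2 ratio of -1.94 (-2.61 to -1.26). Nkx2-1 is switched off in most cortical interneurons and stays on in ventral forebrain cells. Among 7 parvalbumin cell genes 3 were higher and 4 lower, with a median of -0.10, and Syt2, the calcium sensor of fast synapses, was past the fold at 4.955 and 2.85 RPKM (-0.80, -1.10 to -0.49). Among 8 somatostatin cell genes 3 were higher and 5 lower, with a median of -0.09. The substance P receptor gene Tacr1 was at 2.655 and 1.455 RPKM (-0.87, -1.22 to -0.52), and Hpse, a heparanase, at 0.42 and 0.66 RPKM on only 19 and 30 fragments (0.65, -0.23 to 1.56). Both class lists thus held genes on either side of 0, with the marker that names the class on the higher side.

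The CGE markers spread further, and Vip and Calb2 stood at opposite ends. Vip (gene 22353, chromosome 10, 5639193 to 5647617), a peptide that widens vessels and excites neurons through cAMP, was at 15.65 RPKM in control and 22.285 RPKM in CUMS. It rested on 353 and 506 fragments, and the log2 ratio of 0.51 (0.31 to 0.71), or 1.42-fold higher, was the 50th highest among the 9397 genes of at least 5 RPKM. It stayed under 1.5 fold, although the interval reaches past it. Calb2 (gene 12308, chromosome 8, 110142526 to 110168212), the calcium-binding protein calretinin, was at 36.075 RPKM in control and 19.115 RPKM in CUMS, on 779 and 416 fragments. The log2 ratio of -0.92 (-1.09 to -0.74), or 1.89-fold lower, was the 34th lowest among the same genes. The study also reports Calb2 as lower. Vip and Calb2 are often used for overlapping sets of cells, and their log2 ratios differed by 1.43 (1.17 to 1.69), a 2.69-fold difference in the Vip to Calb2 ratio and the widest gap of the 36 pairs.

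Adarb2 (gene 94191, chromosome 13, 8202526 to 8768762), a member of the RNA-editing family without known editing activity and a general mark of CGE-born cells, was the least abundant, at 1.98 RPKM in control and 1.56 RPKM in CUMS. Its log2 ratio was -0.34 (-0.69 to 0.00117), so that the upper bound lay just above 0 on 160 and 127 fragments. Reln (gene 19699, chromosome 5, 21884454 to 22344705), the secreted glycoprotein that guides layering in development and is made in the adult by layer 1 and other interneurons, was at 6.41 and 5.975 RPKM. The log2 ratio of -0.10 (-0.23 to 0.02) was within counting error of 0. The antisense gene Gm10475 shares 246 exon bases with Reln, and the use of strand in counting is not stated.

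Other CGE genes were split as well. Of 8 tested genes, Adarb2 included, 4 were higher and 4 lower, with a median of -0.08, and Sp8 was past 1.5 fold. Sp8, a transcription factor of CGE-born and olfactory bulb interneurons, was at 2.835 RPKM in control and 1.42 RPKM in CUMS (-0.997, -1.37 to -0.63). In the VIP cell list 1 of 6 tested genes was higher, Vip itself, and 5 were lower, with a median of -0.25. Only 2 of the 5, Calb2 and Chat, had a counting interval below 0, and both were past the fold. Chat, the acetylcholine-synthesizing enzyme, is found in a subset of VIP cells and in cholinergic neurons of the basal forebrain. It was at 2.75 and 0.945 RPKM (-1.54, -2.08 to -0.99). Vip was thus the only tested gene of its list with a higher mean.

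**Figure D3:**
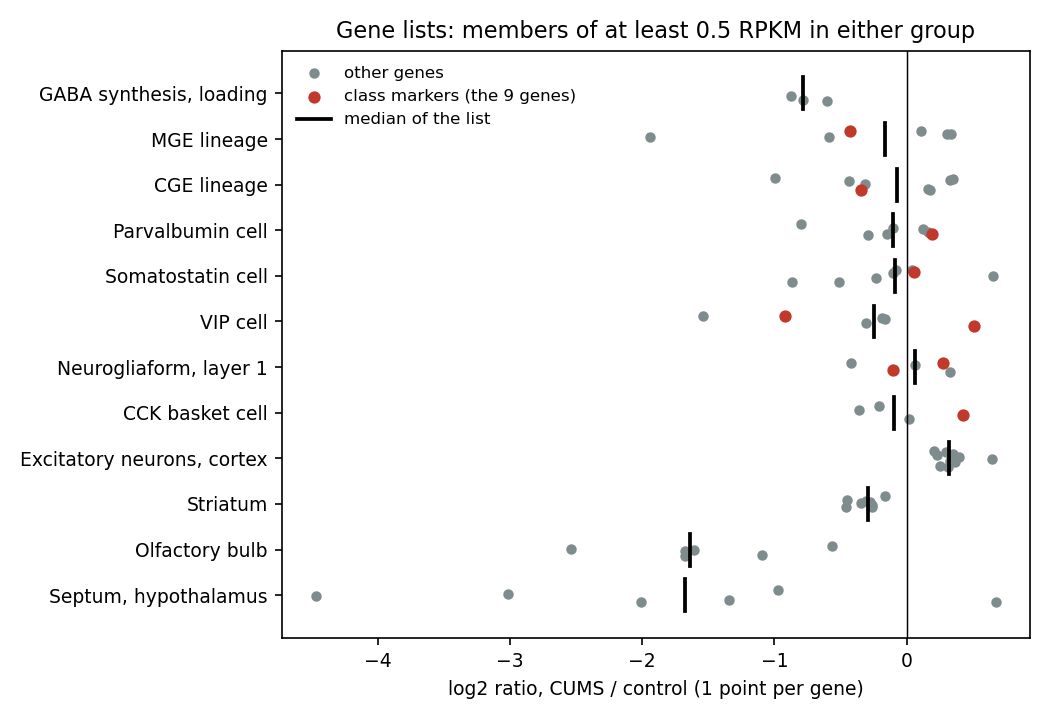
Log2 ratio of each gene of at least 0.5 RPKM in 12 gene lists (1 point per gene, class markers in red, vertical spread within a list only for legibility), with a black bar at the median of the list. The interneuron class lists have medians between -0.25 and 0.06, GABA genes -0.78, cortical excitatory neuron genes 0.32, and the olfactory bulb list -1.64.

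The peptides shared by several classes were higher in CUMS. Cck (gene 12424, chromosome 9, 121489824 to 121495694) encodes cholecystokinin, which is made by a class of basket cells and also by many pyramidal neurons. It was at 421.315 RPKM in control and 565.445 RPKM in CUMS, on 4369 and 5907 fragments. The log2 ratio was 0.42 (0.37 to 0.48), or 1.34-fold higher, the 112th highest among the 9397 genes of at least 5 RPKM. Npy (gene 109648, chromosome 6, 49822710 to 49829507) encodes neuropeptide Y, made by neurogliaform cells and by a part of the somatostatin cells. It was at 90.185 and 109.09 RPKM, a log2 ratio of 0.27 (0.13 to 0.42). The 3 peptides with an interval above 0 were not separable from each other by counting error, as Vip minus Cck was 0.09 (-0.12 to 0.29), Vip minus Npy 0.24 (-0.01 to 0.48) and Cck minus Npy 0.15 (-0.00 to 0.30). Sst, the fourth interneuron peptide, was below Cck in log2 ratio by a difference of 0.37 (0.28 to 0.46) and below Npy by 0.22 (0.06 to 0.38).

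Other genes of these classes differed in direction. Of 5 neurogliaform and layer 1 genes, 3 were higher and 2 lower, with a median of 0.06 and none past the fold. The widest were Krt73, a keratin, at 0.955 and 0.715 RPKM (-0.42, -1.24 to 0.44), and Lamp5, a vesicle membrane protein, at 58.355 and 73.13 RPKM (0.33, 0.23 to 0.42). Of 4 CCK basket cell genes, 2 were higher and 2 lower, with a median of -0.09, and beside Cck the widest was Sncg, gamma-synuclein, at 5.44 and 4.24 RPKM (-0.36, -0.93 to 0.21). The calcium-binding proteins used to tell interneurons apart were split, for Pvalb was at 0.19 and Calb2 at -0.92. Calb1, calbindin, which was named after its value had been seen, was at 32.155 RPKM in control and 41.165 RPKM in CUMS (0.36, 0.25 to 0.46).

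**Figure D4:**
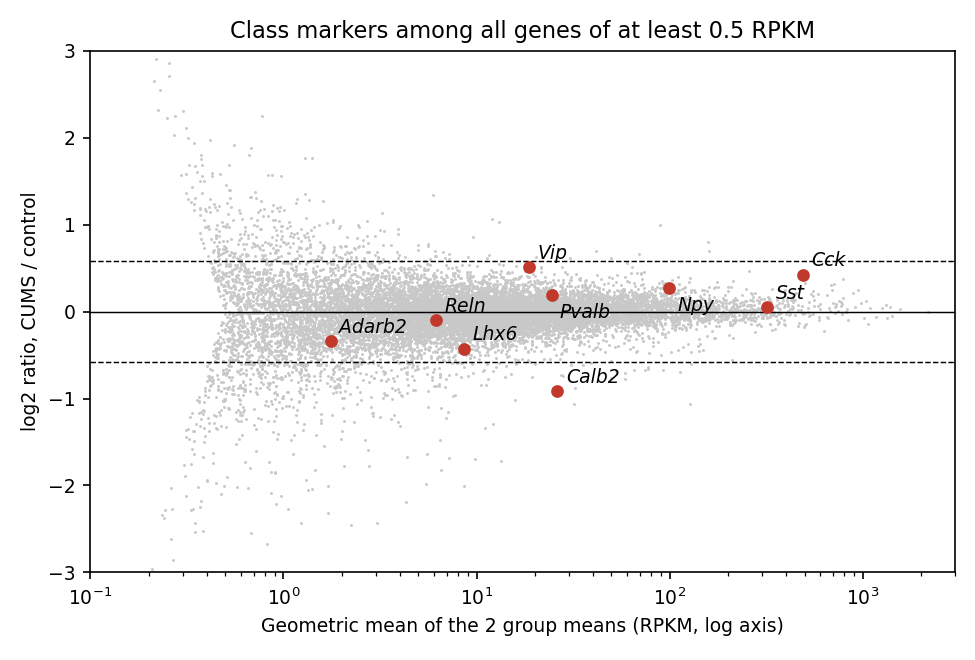
Log2 ratio against the geometric mean of the group means (log axis, RPKM) for 14218 genes of at least 0.5 RPKM (grey) and the 9 class markers (red), with dashed lines at 1.5 fold. Calb2 lies below the lower line, Vip just under the upper line, and 39 genes outside the axes or listed at 0.01 RPKM in a group are not drawn.

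The class markers were set beside the genes that all interneurons use. Gad1 and Gad2 make GABA, and Slc32a1 loads it into vesicles. These 3 were lower in CUMS and past 1.5 fold, with a median log2 ratio of -0.78. Gad1 was at 158.215 and 104.29 RPKM (-0.60), Gad2 at 43.93 and 23.945 RPKM (-0.88) and Slc32a1 at 76.715 and 44.67 RPKM (-0.78). Relative to Gad1 the log2 ratio was higher by 1.11 (0.91 to 1.31) in Vip, by 1.03 (0.95 to 1.10) in Cck, by 0.88 (0.73 to 1.02) in Npy, by 0.79 (0.56 to 1.02) in Pvalb, by 0.66 (0.56 to 0.75) in Sst and by 0.50 (0.37 to 0.63) in Reln. Sst thus went from 1.99 times the level of Gad1 in control to 3.13 times in CUMS. Lhx6 with 0.17 (-0.03 to 0.38) and Adarb2 with 0.26 (-0.08 to 0.60) had intervals that held 0 against Gad1. Against Gad2 and Slc32a1 they did not, with 0.45 (0.23 to 0.66) and 0.35 (0.14 to 0.57) for Lhx6 and 0.53 (0.19 to 0.88) and 0.44 (0.09 to 0.78) for Adarb2. Calb2 was the exception, with -0.32 (-0.49 to -0.14) against Gad1, and its difference from Gad2 of -0.04 (-0.23 to 0.15) and from Slc32a1 of -0.14 (-0.33 to 0.05) did not exclude 0.

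The tissue label was set beside marker lists of the cortex and of its neighbors, since some class markers are not confined to the cortex. These lists were chosen with earlier results of these data known. The study itself reports Doc2g and Th (olfactory bulb list), Zic1 (septum list), Mobp and Cldn11 (oligodendrocyte list) as lower. The counts below therefore describe the lists and are no independent check. Cortical excitatory neuron genes were abundant, with Slc17a7, the vesicular glutamate transporter, at 635.39 RPKM in control and 791.26 RPKM in CUMS. All 10 genes of this list were higher in CUMS, with a median of 0.32, a range of 0.21 to 0.65 and Emx1 past 1.5 fold (9.28 and 14.515 RPKM). Cck, with 0.42, lay within this range, as did Vip (0.51) and Npy (0.27). All 6 olfactory bulb genes were lower (median -1.64, 5 past the fold), and their summed level went from 31.8 to 13.0 RPKM. For all genes above the minimum, 2.78% were past the fold upward and 4.42% downward, and low genes pass it more easily. Of 6 tested septum and hypothalamus genes 5 were lower and past the fold (median -1.67, summed 35.4 and 14.1 RPKM). Pmch was higher and past it, with an interval that held 0 (0.67, -1.13 to 2.63). Without the minimum the median of this list was -1.16. Among the lower genes Zic1 was at 17.515 and 6.915 RPKM and Lhx8 at 3.4 and 0.845 RPKM. The 5 hypothalamic peptides of that list were sparse, as Gal rested on 23 fragments in control and 1 in CUMS, Oxt on 8 and 1, Pmch on 5 and 8, Hcrt on 2 and 4 and Avp on 1 and 1. All 8 striatum genes were lower (median -0.29, none past the fold), from 505.5 to 411.2 RPKM in sum. The oligodendrocyte list was lower in 4 of 4 genes (median -0.62). The microglia median (0.31) was close to that of the excitatory list, and those of astrocytes (0.09) and endothelium (-0.15) were nearer to 0. The microglia, astrocyte and endothelium lists each held genes on either side of 0, and Cldn5 of the endothelium list was past the fold (-0.61, -0.77 to -0.45).

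Calretinin is abundant in olfactory bulb interneurons, Lhx6, Nkx2-1 and Chat are made in the septum and basal forebrain, and Gad1, Gad2 and Slc32a1 in the neurons of all of these regions. The lower means of Calb2, Lhx6 and the GABA genes stand beside lower means of the region lists. Regional sources were named here only for genes with lower means. Those of the other class markers were not compared. The higher means of Cck, Vip and Npy stand beside higher means of the cortical excitatory list. The markers did not all go one way. Means were not lower for Sst (0.05), Pvalb (0.19), Npy (0.27) and Vip (0.51), and were lower for Reln (-0.10) and Adarb2 (-0.34). The part of these lists in the values of the class markers was not tested.

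The peptides act through G protein-coupled receptors, and 12 of the 14 receptor genes examined had at least 0.5 RPKM. Of these, 5 were higher and 7 lower in CUMS, with a median of -0.03, none past the fold upward and 3 downward. Over all genes above the minimum, 2.78% were past it upward and 4.42% downward, and low genes pass a fold more easily. The receptors past the fold were all under 5 RPKM in both groups, as was Npy5r, which was not past it. Sstr5, a somatostatin receptor, was at 1.08 RPKM in control (44 fragments) and 0.09 RPKM in CUMS (4 fragments), a log2 ratio of -3.58 (-5.41 to -2.01). Vipr2, a receptor of VIP and of the related peptide PACAP, was at 0.985 and 0.23 RPKM on 50 and 12 fragments (-2.10, -3.11 to -1.14). Npy2r, the presynaptic neuropeptide Y receptor, was at 2.92 and 1.86 RPKM on 145 and 93 fragments (-0.65, -1.04 to -0.27).

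The other receptors of the same peptides were within 1.5 fold. Sstr1, Sstr2 and Sstr4 had log2 ratios of 0.15, -0.04 and -0.07, each with an interval that held 0, and Sstr3 was at 8.075 and 10.54 RPKM (0.38, 0.21 to 0.56). Vipr1, the other VIP receptor, was at 8.86 and 9.84 RPKM (0.15, -0.00 to 0.31), and Npy1r at 7.13 and 7.36 RPKM (0.05, -0.18 to 0.27). Cckbr, the main cholecystokinin receptor of the brain, was at 35.065 RPKM in control and 39.89 RPKM in CUMS (0.19, 0.08 to 0.30). Adcyap1r1, the PACAP receptor, was at 60.73 and 51.915 RPKM (-0.23, -0.28 to -0.17). Npy5r was at 1.51 and 1.485 RPKM (-0.02, -0.62 to 0.55). Cckar lay under the minimum with 19 fragments in control and 1 in CUMS, and Npy4r with 0 and 1. Among the 12 tested receptors, the 2 with the widest differences, Sstr5 and Vipr2, were also the 2 with the fewest fragments, in control too (44 and 50). Npy5r had a similar number in control (52), and its log2 ratio was -0.02.

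**Figure D5:**
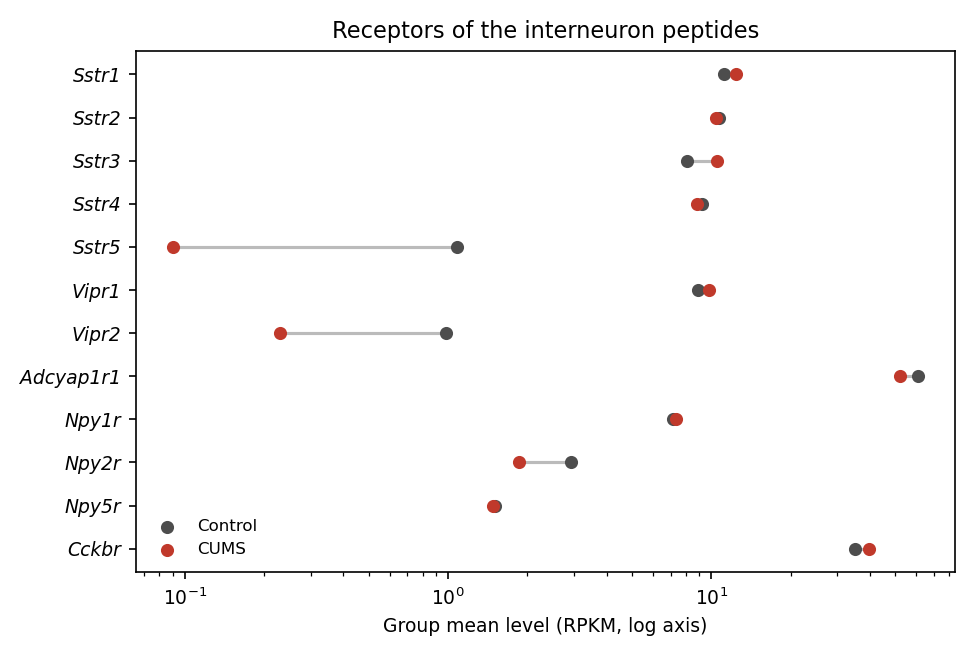
Group means of the 12 peptide receptor genes of at least 0.5 RPKM, on a log axis, control in grey and CUMS in red. Sstr5 (1.08 and 0.09 RPKM), Vipr2 (0.985 and 0.23 RPKM) and Npy2r (2.92 and 1.86 RPKM) are the 3 past 1.5 fold. CUMS lies far to the left of control for Sstr5 and Vipr2 and less so for Npy2r. Cckbr and Adcyap1r1 are the highest in both groups.

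Reelin binds the receptors Lrp8 and Vldlr, which pass the signal to the adaptor Dab1. These 3 genes had log2 ratios of -0.02 (-0.15 to 0.10), 0.02 (-0.13 to 0.16) and 0.06 (-0.05 to 0.17), so that ligand, receptors and adaptor all held 0 in their intervals. The enzymes and granule proteins that turn peptide precursors into peptides were mostly higher by small amounts, with 8 of 11 genes higher, 3 lower, a median of 0.05 and none past the fold. The widest were Pcsk2, a convertase that cuts precursors, at 99.58 and 124.41 RPKM (0.32, 0.28 to 0.37), and the granule protein Scg2 at 92.51 and 72.805 RPKM (-0.35, -0.42 to -0.27). Over all genes above the minimum 46.6% were higher and 53.2% lower.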

How the data were processed

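Poly(A) RNA of 2 control and 2 CUMS libraries was sequenced as paired reads. The submitters' processing notes name TopHat 1.0.12, Bowtie 0.11.3 and the build mm10. Annotation and strandedness of the counting are not given in the sources used here. The values are RPKM, which the authors had averaged over the libraries of a group before they were deposited, with the gene length in bases used for them. The authors also deposited a log2 ratio, a direction and a NOISeq probability for each gene, which hold their own comparison and were not used.

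Members were matched by symbol. Fragments were estimated from genes under 1000 bases, where group mean times length falls on steps of 67.7 (control) and 67.2 (CUMS). Of 406 and 392 values, 86.5% and 86.2% were whole to within 0.15 of a step, against 32.0% and 35.5% with shuffled lengths. The estimate assumes equal depth of the libraries of a group. Intervals are exact Clopper-Pearson (ratio of groups), exact Poisson (level) and normal on the log scale (difference between genes) at 95%, and PCR duplicates are included. No fit across libraries could be made. A gene was counted as past the fold above 1.5. Alternatives covered scaling, pseudocount, filter, fold, fragments and gene length. Calculations used Python 3.11.15, numpy 2.4.6, pandas 2.3.3 and scipy 1.17.1 and were tested on simulated data.

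Coordinates and promoters are from RefSeq GRCm38.p6, transcript lengths and overlaps from GENCODE. Members and lists were chosen with earlier results of these data known. Named were all members, the list genes past 1.5 fold (with none, the 2 widest) and any gene of the GABA, receptor and reelin lists. Some of these are given by count only. Calb1, Slc17a7, Avp, Hcrt, Kcnip1 and Cxcl14 were named after their values had been seen. A gene of the GABA list and a gene of the added interneuron genes are not reported here and were left out of the counts and medians of those lists.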

Additional observations from a re-analysis of the deposited data

How the results depend on the processing

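No paired analysis was possible because libraries had been averaged within each group before deposit. Neither leaving out each replicate nor a replicate block could therefore be run. The number of genes past 1.5 fold, 1026, was 512 with a pseudocount of 0.5 RPKM, 150 among genes of at least 5 RPKM, 3387 without a minimum, 2696 at the lower threshold of 0.32 on the log2 scale and 350 at a fold of 2. Of 20 gene lists, 14 had a median below 0, and 8 among genes of at least 5 RPKM, where fewer genes are tested. The medians that turned positive there were those of the MGE (0.10), CGE (0.25), parvalbumin cell (0.12), CCK basket cell (0.02), receptor (0.10) and calcium-binding lists (0.19). For the class markers, 36 of 36 values under rescaling (to a median of 0, or to an equal total, a shift of 0.0076) and under pseudocounts of 0.5 and 1 RPKM kept their direction and lay within the counting interval. Fragments fewer by a factor of 2 and the longest GENCODE length, for the order of levels, were chosen after seeing the data. Each left 14 of 16 neighbors apart in the same order. The depth is an estimate, below the sequencing depth stated by the study. A lower depth would widen every interval, and a higher depth would narrow it.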

Other observations

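A further 8 interneuron genes were looked up after the values of the class markers had been seen, and 7 of them had at least 0.5 RPKM. Of these, 2 were higher in CUMS and 5 lower, with a median log2 ratio of -0.27, and 2 were past 1.5 fold. Both were lower, a direction in which 4.42% of the tested genes passed this fold. The share was 1.28% under a minimum of 5 RPKM. Counting intervals fell wholly under 0 in 4 of the 7 and wholly over it in none. For the tested genes these shares were 16.8% and 12.5%. Beside Pnoc and Cort, the 4 were Kcnip1 (-0.35, -0.56 to -0.15) and Cxcl14 (-0.27, -0.37 to -0.17). Pnoc, the precursor of nociceptin, was at 6.525 RPKM in control and 3.505 RPKM in CUMS (-0.90, counting interval -1.24 to -0.56). Cort, which encodes cortistatin, a peptide close to somatostatin, was at 8.44 and 4.995 RPKM on 62 and 37 fragments (-0.76, -1.38 to -0.15), whereas Sst was at 0.05 on the log2 scale. Nxph1, a neurexin ligand of MGE-born cells, was at 11.735 and 11.76 RPKM.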
